A study of Mus musculus with 6 samples.

Results

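Cd36 and 8 genes of fatty acid uptake and oxidation were compared between untreated mouse pro-B cells and cells given tamoxifen to delete the transcription factor gene Foxo1. The 9 genes (Cd36, Scarb1, Scarb2, Cpt1a, Cpt2, Acadm, Acadl, Hadha and Pdk4) were chosen by symbol as a pathway around Cd36, with the difference between treated and untreated cells in these same samples already known. Each of the 9 had exactly 1 probe set with a single gene symbol, out of 19937 genes so named on the array. Because the contrast itself entered the choice, the differences of these 9 genes are given as descriptions without a test.

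All 6 samples were pro-B cells of strain C57/BL6 transformed with v-Abl, a viral oncogene that arrests the cells early in the B lineage. All had the genotype Foxo1f/f; ERCre, with loxP-flanked Foxo1 alleles and a Cre recombinase that tamoxifen switches on through an oestrogen receptor domain. In the tamoxifen group, 3 samples received 1 µM tamoxifen for 2 days, and the 3 samples of the untreated group received none. Both groups carried Cre, and cells with intact Foxo1 alleles given tamoxifen were not analysed here, so an effect of the drug and one of the deletion cannot be told apart. The labels do not say whether the cells came from 1 clone or whether samples of a group were separate cultures, so the errors given here may be technical.

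Long-chain fatty acids enter cells partly through CD36, a class B scavenger receptor at the plasma membrane that also binds oxidised lipoproteins and thrombospondin. Inside the cell they are coupled to coenzyme A, passed into mitochondria by the carnitine shuttle, and shortened there by the enzymes of beta oxidation. FOXO1 is known in liver and muscle as a factor that favours fatty acid use, in part through Pdk4, a kinase that closes the entry of pyruvate into the citric acid cycle. Among B cells, CD36 is best known from marginal zone B cells.

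The array medians lay between 100.9 and 109.1 and the lower quartiles between 43.3 and 47.3, on the linear intensity scale of the deposited values. Foxo1 itself measured 806, 624 and 512 without tamoxifen and 116, 151 and 134 with it (samples 1, 2 and 3 in that order, as for every gene below), but the sources do not say whether its probe set covers the deleted part. The early B cell genes Vpreb1 and Igll1, the surrogate light chain, were bright (3038 and 3449 in untreated cells), whereas the recombinase genes Rag1 and Rag2 lay under the array medians (68.7 and 46.3).

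The promoters of Cd36, the gene with the large difference, and of Pdk4, a textbook FOXO target with a log2 fold change near 0, are shown first because the results turn on this pair. They are the 250 bases before the 1 start that a RefSeq promoter table of build GRCm38.p6 lists for each gene, written 5′ to 3′ on the strand of the gene. Capitals mark the nuclear receptor binding hexamer AGGTCA on either strand, of which PPAR receptors bind a tandem pair.
Cd36 promoter, chr5:17835897-17836146, minus strand: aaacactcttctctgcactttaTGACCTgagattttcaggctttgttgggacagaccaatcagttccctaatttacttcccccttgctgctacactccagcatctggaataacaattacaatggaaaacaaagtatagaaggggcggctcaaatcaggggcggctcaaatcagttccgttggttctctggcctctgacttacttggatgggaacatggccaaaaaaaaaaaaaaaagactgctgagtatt
Pdk4 promoter, chr6:5496279-5496528, minus strand: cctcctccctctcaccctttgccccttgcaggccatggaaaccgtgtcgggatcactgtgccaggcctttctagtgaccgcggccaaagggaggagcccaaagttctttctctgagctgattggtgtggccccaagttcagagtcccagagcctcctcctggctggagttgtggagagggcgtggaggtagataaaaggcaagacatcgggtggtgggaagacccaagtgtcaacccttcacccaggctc

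The Cd36 window held 1 hexamer, at position -228 from the start, and the Pdk4 window held none. Of the 9 genes 8 had a window in the table, and 3 of these 8 (Cd36, Acadm and Cpt1a) held the hexamer, which 14.0% of all 32851 windows of this length hold. The FOXO core motif TGTTTAC, searched on both strands, was in 0 of the 8 windows and in 3.17% of all windows. The hexamer repeated with 1 base between was in 0 of the 8 and in 0.0335% of all, which says only that these letters are not in these windows. The Cd36 window differed in composition from the other 7, with 43.2% G and C and 3 CpG dinucleotides. The other windows had 56.8% to 68.0% G and C and 6 to 25 CpG dinucleotides, and the median over all windows was 52.4% and 6. A count of 3 or fewer CpG dinucleotides was common, in 37.8% of all windows. Cd36, Hadha and Scarb2 have their windows on chromosome 5.

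Cd36 was the only one of the 9 genes whose log2 fold change exceeded 1 in size. Without tamoxifen its intensity was 34.0, 67.9 and 42.3 in the 3 samples, and with tamoxifen it was 209.9, 274 and 289. The groups did not overlap, and the lowest tamoxifen value lay far above the highest untreated one. The group means were 48.1 ± 17.7 and 258 ± 42.0 (SD, n = 3), a ratio of 5.36. On the log2(intensity + 16) scale used for all fold changes, which understates changes of dim genes, the difference was 2.12 ± 0.21 (SE), or 4.34-fold. That was the highest log2 fold change of all 19937 genes, and it was known when the genes were chosen.

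The untreated level of Cd36 was close to the dim end of the arrays, since 2 of its 3 values lay below the lowest lower quartile of any array. The size of the fold change therefore moved with the constant added before the logarithm, from 1.52 with 64 to 2.44 with 1. With any 1 sample left out it ran from 1.97 to 2.33. The spread was uneven among untreated cells, where sample 2 had 67.9 and the others 34.0 and 42.3.

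**Figure D1:**
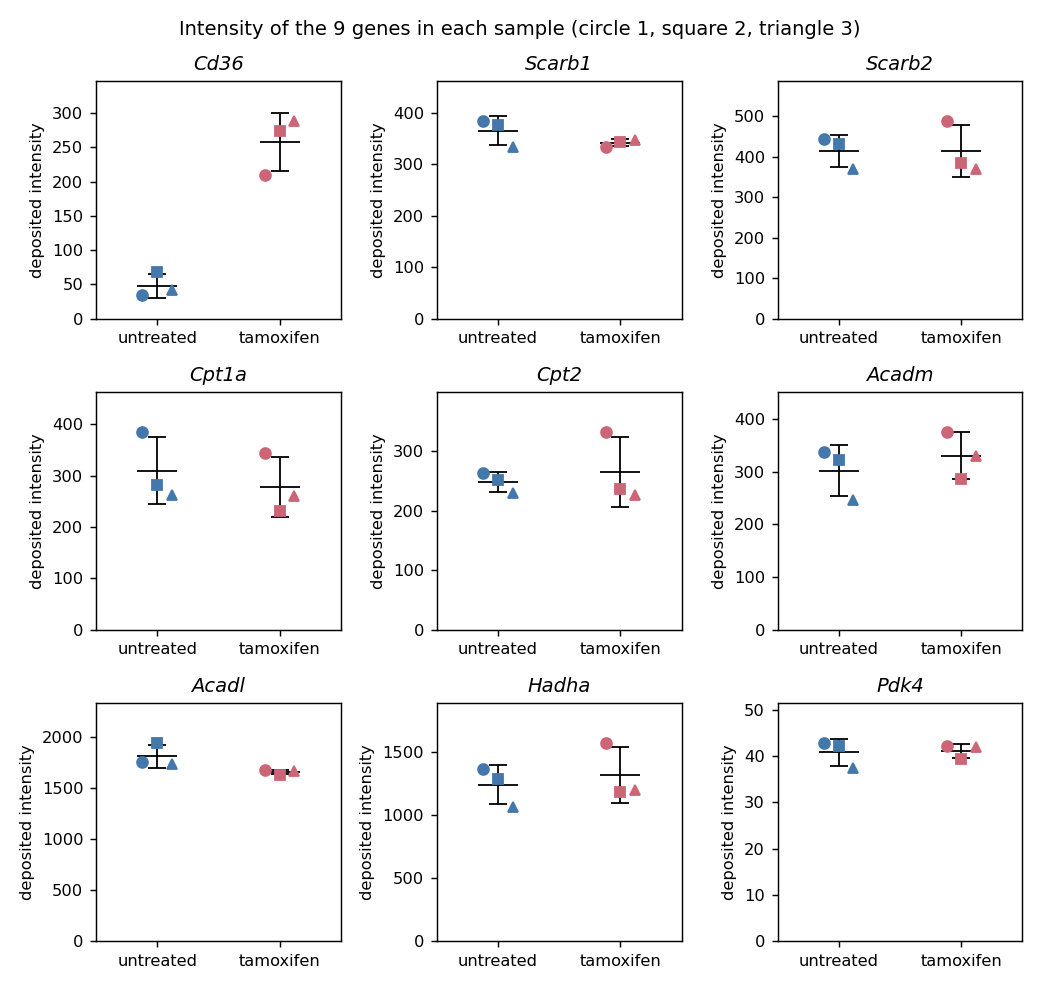
Deposited intensity (linear, axis from 0) of each of the 9 genes, with untreated samples in blue and tamoxifen samples in red, circles for sample 1, squares for sample 2 and triangles for sample 3, and black bars for the mean and SD of 3 samples. The Cd36 values of 34.0 to 67.9 and of 209.9 to 289 are far apart, whereas the groups of the other genes lie close together or overlap.

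In the limma fit, with p-values adjusted by Benjamini-Hochberg across 34760 probe sets, 0 of the 9 genes were called at 0.05, where 0.0853% of all genes (17 of 19937) were called. Groups without overlap on the normalised scale were seen for 2 of the 9, Cd36 and Scarb1, beside 11.2% of all genes (2240 of 19937). Cd36 was called under 3 of the 17 settings compared at the end, among them a brightness filter which it passed only through tamoxifen samples. All these counts are descriptions, since the choice of the genes used this contrast.

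The other class B scavenger receptors had log2 fold changes near 0. Scarb1 encodes the HDL receptor SR-BI, which takes up cholesteryl esters. Scarb1 measured 385, 377 and 333 in untreated samples and 334, 344 and 348 after tamoxifen, with means of 365 ± 28.0 and 342 ± 6.78 (SD, n = 3). In the deposited values all 3 tamoxifen samples of Scarb1 lay inside the untreated range, whereas after normalisation the groups did not overlap and the log2 fold change was -0.11 ± 0.07 (SE). Scarb2 encodes LIMP-2, a lysosomal membrane protein that delivers beta-glucocerebrosidase to lysosomes. It measured 442, 430.15 and 369 in untreated samples and 489, 384 and 370.4 after tamoxifen. The groups overlapped almost fully, with means of 414 ± 39.2 and 414 ± 64.6 (SD, n = 3) and a log2 fold change of -0.03 ± 0.09 (SE).

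The carnitine palmitoyltransferases, the enzymes of the carnitine shuttle for long-chain acyl groups, had overlapping groups. Cpt1a, the outer membrane enzyme that sets the rate of import, measured 385, 282 and 263 in untreated samples and 343, 230.2 and 259 after tamoxifen. Its groups overlapped, and sample 1 was the highest of both. The log2 fold change of Cpt1a was -0.18 ± 0.17 (SE), and it lay between -0.30 and -0.03 when 1 sample was left out. With same-numbered samples treated as pairs (a replicate block) its SE was 0.07, but the labels do not state such pairs. Cpt2, the inner membrane enzyme, measured 263, 252 and 231 in untreated samples and 333, 237 and 227 after tamoxifen. Only tamoxifen sample 1 stood above the untreated range, and without it the log2 fold change of 0.05 ± 0.12 (SE) became -0.09.

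The enzymes of mitochondrial beta oxidation differed little between the groups. Acadm, the medium-chain acyl-CoA dehydrogenase, measured 337, 322 and 246 in untreated samples and 375, 285 and 329 after tamoxifen, with a log2 fold change of 0.11 ± 0.12 (SE). Acadl, the long-chain acyl-CoA dehydrogenase, measured 1749, 1939.5 and 1733 in untreated samples and 1672, 1627 and 1663 after tamoxifen. The deposited values of Acadl did not overlap, with means of 1807 ± 115 and 1654 ± 23.6 (SD, n = 3), but after normalisation they did, and its log2 fold change was -0.13 ± 0.07 (SE). Hadha, the alpha chain of the mitochondrial trifunctional protein, measured 1372, 1292 and 1069 in untreated samples and 1576, 1184 and 1198 after tamoxifen. The Hadha groups overlapped, and the log2 fold change was 0.07 ± 0.10 (SE).

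Pdk4, the pyruvate dehydrogenase kinase that FOXO1 activates in muscle and liver, was dim in all 6 samples. It measured 42.9, 42.1 and 37.5 without tamoxifen and 42.1, 39.3 and 42.0 with it, all below the lowest lower quartile of any array. The groups overlapped, with means of 40.8 ± 2.89 and 41.1 ± 1.58 (SD, n = 3) and a log2 fold change of 0.02 ± 0.08 (SE). At this brightness a low level of Pdk4, or a fall from one, may not be detectable on these arrays.

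Among themselves the 8 genes other than Cd36 had log2 fold changes between -0.18 and 0.11, with 4 positive and a median of -0.01, which was also the median of all genes. Of the 9 genes 8 were under 0.25 in size, as were 96.1% of all genes. Sample 1 was the highest untreated sample for 7 of the 9 genes and the highest tamoxifen sample for 7 of the 9. After normalisation the counts were 7 for untreated and 6 for tamoxifen samples. Tamoxifen sample 1 had the highest upper quartile of the 6 arrays (298.8). That of untreated sample 1 (285.6) lay below that of untreated sample 2 (293.0). Such counts were not taken over all genes, so they are not a trait shown for these genes. Cd36 had the other order, since untreated sample 1 and tamoxifen sample 1 were the lowest of their groups.

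The wider pathway was described with 119 measured genes of 128 listed in 8 lists, none of them among the 9. By limma over all probe sets 0 of the 119 were called. At an unadjusted p under 0.05, 7 were positive and 4 negative (9.24%, where all genes had 5.15%). Of all genes at that unadjusted p, 57.5% were positive. Whatever the p, 57 of the 119 were positive (47.9%), beside 44.5% of all genes. The median log2 fold change of the 119 was -0.01, as for all genes. Groups without overlap were seen for 15.1% of the 119, beside 11.2% of all genes. For 11 of the 119 the mean lay below the lowest lower quartile of any array, where a change may not be detectable.

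In the list of uptake, binding and activation 11 of 21 genes were positive and none was called by limma, with 1 up and 1 down at an unadjusted p under 0.05. The fatty acid transporters Slc27a1 and Slc27a4 had log2 fold changes of -0.02 ± 0.07 and -0.03 ± 0.07 (SE). The acyl-CoA synthetases Acsl4 and Acsl5 had -0.16 ± 0.22 and 0.03 ± 0.07 (SE). Fabp5, a cytoplasmic fatty acid binding protein, was the lowest of the list, with 1075, 838 and 711 in untreated samples and 684, 522 and 527 after tamoxifen. Its groups did not overlap, and the log2 fold change was -0.59 ± 0.14 (SE) with a limma adjusted p = 0.483. A second probe set of Fabp5 gave -0.58 ± 0.19 (SE). The highest of the list was Acsbg1, an acyl-CoA synthetase, at 0.22 ± 0.06 (SE) with a limma adjusted p = 0.631.

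The carnitine shuttle list had 1 of 5 genes positive, from Slc22a5, the carnitine importer (-0.11), to Crot, the peroxisomal octanoyltransferase (0.17). The carrier Slc25a20 and the acetyltransferase Crat measured -0.01 and -0.0048, and Cpt1c, the brain form of the outer membrane enzyme, -0.06. In the mitochondrial beta oxidation list 11 of 19 were positive, with a median of 0.03 and a range from Hsd17b10 (-0.16) to Acadsb (0.37), a dehydrogenase of short branched chains. The core enzymes lay near 0, with Acadvl at 0.07, Acads at -0.02, Hadh at -0.03, Hadhb at 0.02, Echs1 at -0.07 and Acaa2 at 0.10. The electron transfer flavoprotein chains Etfa and Etfb and their dehydrogenase Etfdh measured -0.13, -0.03 and 0.10. None of the genes of either list was called by limma, and 0 and 2 of them had an unadjusted p under 0.05.

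The peroxisomal list held the gene closest to the threshold. Phyh, which starts the alpha oxidation of branched phytanic acid, measured 400, 494 and 413 in untreated samples and 768, 698 and 692 after tamoxifen. The groups did not overlap, and the log2 fold change was 0.69 ± 0.08 (SE) with a limma adjusted p = 0.0752, which was not past the threshold. It passed under 3 of 17 settings, and over all settings its adjusted p ran from 0.0110 to 0.413. Acox3, a peroxisomal oxidase of branched chains that was added after its values were seen, measured 0.55 ± 0.09 (SE) with a limma adjusted p = 0.249. The beta oxidation enzyme of peroxisomes Hsd17b4 had 0.03, the lowest was the fatty acyl transporter Abcd3 at -0.17, and 8 of 14 genes were positive, with 0 called by limma and 2 positive at an unadjusted p under 0.05.

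Among regulators 5 of 16 genes were positive, with a median of -0.05, 0 called by limma and 2 negative at an unadjusted p under 0.05. The lipid-sensing receptors Ppara, Ppard and Pparg measured -0.04, 0.12 and -0.07, of which Ppard was the highest of the list. Their coactivators Ppargc1a and Ppargc1b had -0.06 and -0.10, and the partner receptor Esrra 0.03. Ppargc1a was dim, with means of 26.2 and 24.4, below the lowest lower quartile of any array. Prkaa2, a catalytic subunit of the energy sensor AMPK, was the lowest (-0.24 ± 0.06 SE, limma adjusted p = 0.521), while the other subunit gene Prkaa1 had 0.07. Acacb, which makes the inhibitor of fatty acid import malonyl-CoA, and Mlycd, which removes it, measured -0.02 and 0.10.

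In the pyruvate dehydrogenase list 4 of 11 genes were positive, with a median of -0.10, 0 called by limma and 1 negative at an unadjusted p under 0.05. The kinases Pdk1, Pdk2 and Pdk3 had log2 fold changes of -0.24 ± 0.18, 0.02 ± 0.07 and -0.07 ± 0.12 (SE). Pdp1, the phosphatase that opposes these kinases, measured 576, 654 and 580.5 in untreated samples and 404, 412 and 461 after tamoxifen. Its groups did not overlap, and the log2 fold change was -0.50 ± 0.10 (SE) with a limma adjusted p = 0.340, the lowest value of the list. The highest was Mpc1, of the mitochondrial pyruvate carrier, at 0.16.

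Lipolysis and lipid droplet genes had 8 of 17 positive and a median of -0.01, with 0 called by limma and 1 positive at an unadjusted p under 0.05. The lipases Pnpla2 and Lipe measured -0.07 and 0.13, the droplet coat protein Plin2 0.01 and the triglyceride-forming enzyme Dgat1 0.10. The ends were Plin4 (-0.14) and Lipa (0.24), the lysosomal acid lipase. Ligands and partners of the scavenger receptors had 9 of 16 positive and a median of 0.03, again with 0 called by limma and 1 positive at an unadjusted p under 0.05. Thbs1, which encodes the CD36 ligand thrombospondin, had -0.08, and the tetraspanins Cd9 and Cd81 had 0.03 and 0.21. The ends of that list were the sterol transporter Abcg1 (-0.19) and Tlr4, an innate receptor that can pair with CD36 (0.25 ± 0.32 SE).

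**Figure D2:**
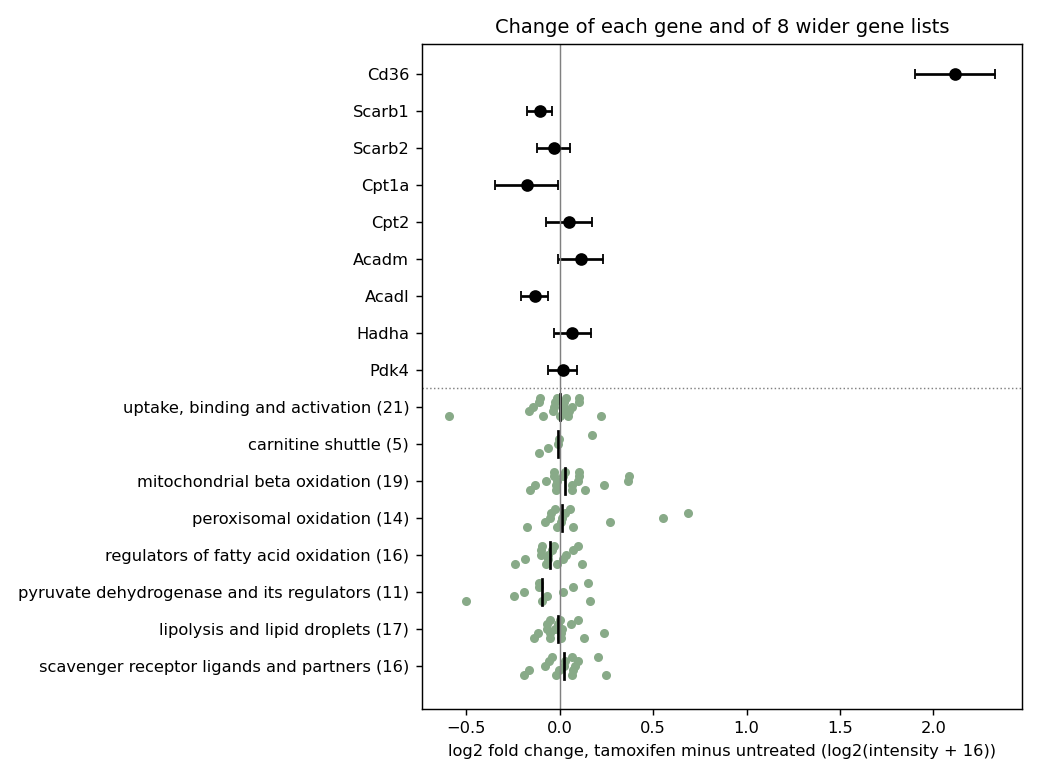
Log2 fold change, tamoxifen minus untreated, on the log2(intensity + 16) scale. Black points with SE bars are the 9 genes, green points are single genes of the 8 wider lists (number of genes in brackets) and black ticks are list medians. Cd36 stands at 2.12, the other 8 genes lie between -0.18 and 0.11, and the 119 wider genes lie between -0.59 and 0.69.

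CD36 is also carried by macrophages, platelets, fat cells, endothelium and marginal zone B cells, so markers of these cells are given beside its difference. The summed intensity of 10 macrophage and granulocyte markers was 753 to 842 in untreated and 803 to 811 in tamoxifen samples, and 8 of the 10 lay under the array medians. Csf1r, the macrophage growth factor receptor, had means of 70.6 and 63.8. The sums of 4 megakaryocyte and platelet markers were 304 to 349 and 295 to 315, and those of 5 fat cell markers 343 to 401 and 350.2 to 375. The 4 endothelial markers summed to 563 to 853 and 689.6 to 957, mostly through Pecam1, which B lineage cells also express. Among these lists 0 genes were called by limma or had an unadjusted p under 0.05. Lyz2, Fcgr1 and Tek were without overlap between the groups, as were 11.2% of all genes.

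Of 5 marginal zone B cell markers 4 were positive, with sums of 446 to 579 and 492 to 665. Cd1d1, a lipid-presenting molecule, had no overlap between the groups (means 67.0 and 92.2, log2 fold change 0.41 ± 0.11 SE, limma adjusted p = 0.610). Cr2, the complement receptor CD21, had means of 147 and 223 with overlapping groups, and a log2 fold change of 0.57 ± 0.27 (SE). Cd9 and S1pr3 measured 0.03 and 0.05. The negative one of the list was Dtx1, with means of 185 and 171 and a log2 fold change of -0.12 ± 0.13 (SE). Over all genes 0.0853% were called by limma, 11.2% had no overlap between the groups and 5.15% had an unadjusted p under 0.05. Of 9 pro-B cell markers 0 were called by limma, while 7 had no overlap between the groups and an unadjusted p under 0.05. Of these 7, 5 were positive and 2 negative. The positive ones were the receptor chain Cd79a (0.32), the B lineage factor Pax5 (0.38), the surface receptor Cd93 (0.34) and the surrogate light chain genes Igll1 (0.26) and Vpreb1 (0.19). The negative ones were Dntt, the terminal transferase, with means of 385 and 144 (-1.26 ± 0.25 SE), and Ebf1, a factor that specifies the B lineage, with means of 1955 and 1384 (-0.51 ± 0.07 SE). The part of the pro-B and marginal zone markers in the difference of Cd36 was not tested. In bulk samples, more cells with a transcript and more of it per cell cannot be told apart.

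The genes with the profile closest to Cd36 over the 6 samples were 5 genes that are in none of the fatty acid lists. Closeness was the mean absolute difference between centred log2 values, over 10610 other genes at or above the median brightness. Brightness was the mean over all 6 samples, so a gene dim without tamoxifen could enter through its tamoxifen values. The closest were Cd74, the MHC class II invariant chain (0.30), Bank1, a B cell adaptor (0.30), Ifi30, a lysosomal thiol reductase (0.33), Bcar3, an adhesion adaptor (0.37), and Kmo, an enzyme of tryptophan breakdown (0.39). Cd74 measured 178, 156 and 102 in untreated samples and 413, 432 and 506 after tamoxifen, and like Cd36 it was highest in tamoxifen sample 3. Kmo measured 58.0, 80.0 and 57.0 in untreated samples and 277, 202 and 186 after tamoxifen. Sample 2 was its highest among untreated cells, as for Cd36. Sample 1 differed, with the highest untreated value of Cd74 and the highest tamoxifen value of Kmo, where Cd36 was lowest. Since these genes were picked for likeness to a profile with separate groups, their separation is part of the choice. Kmo also reached the median brightness (106.2) only through its tamoxifen values, with means of 65.0 untreated and 222 with tamoxifen.

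For Pdk4 the closest profiles were nearly flat, with Fem1b, Rabl6, Nsl1, Tbc1d9b and Tm9sf1 within 0.0172 to 0.0204 of it on the same measure. The log2 fold changes of these 5 genes lay between -0.01 and 0.05.

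**Figure D3:**
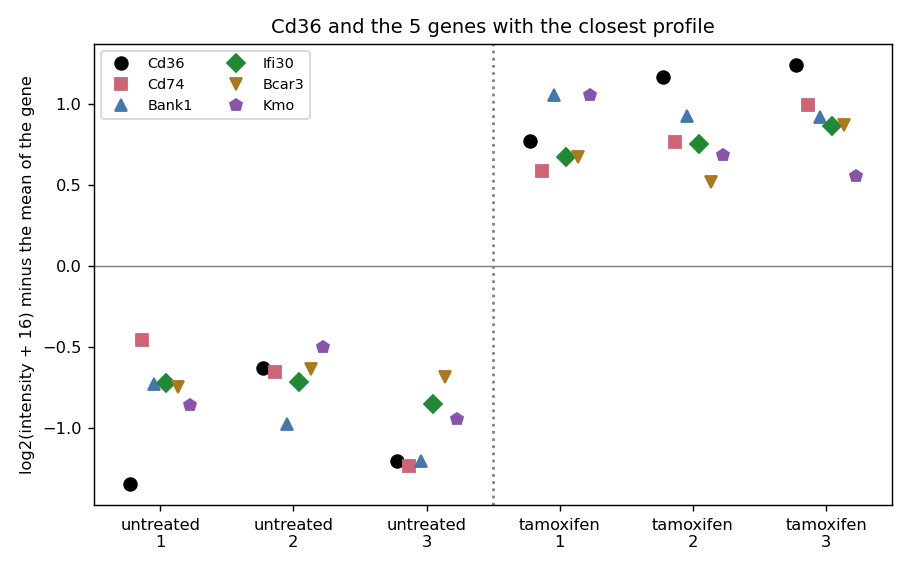
Log2(intensity + 16) of Cd36 and of its 5 closest genes in each of the 6 samples, after subtraction of the mean of each gene. Cd36 (black circles) runs from -1.35 to 1.24, a wider range than any of the other 5 genes.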

How the data were processed

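Total RNA of 3 untreated and 3 tamoxifen-treated samples was hybridised to gene-level arrays after TRIZOL extraction, column purification and biotin labelling, per the labels' protocols. The deposited values are linear intensities, 1 per probe set and array, already summarised by the authors. Background correction and normalisation are not given in the sources used here, nor are detection calls, hybridisation batches or scan dates. Intensities were converted to log2(value + 16), quantile normalised and tested two-sided in limma 3.58.1 (lmFit, eBayes; R version 4.3.3), adjusted over all 34760 probe sets at 0.05. A platform table gave 21640 probe sets 1 symbol, 1321 several, and did not list 11799. The brightest probe set stood for each of 19937 genes. Of 128 listed pathway genes, 9 had no probe set with 1 symbol and were not analysed here. Printed intensities and SDs are the deposited values.

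The 9 genes and all lists were chosen with earlier results of these data known. Genes named from the lists were a set written down by name, any gene past the threshold, and the highest and lowest of each list. Likeness was measured as described, taking the 5 closest genes and passing over clone and RIKEN style names. The fit was tested on simulated data. Alternatives were a replicate block, each sample left out, other normalisations and pseudocounts, a brightness filter, intensity trend with robust eBayes, array weights and averaged probe sets. Figures were drawn with matplotlib 3.10.9.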

Additional observations from a re-analysis of the deposited data

How the results depend on the processing

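With 3 arrays a group the calls rest on few samples, and for dim genes such as Pdk4 and untreated Cd36 the brightness over background, which cannot be told here, limits the fold change. Limma called 20 probe sets in all. It called 3 after scaling to a common median, 12 with no further normalisation, 12 with an intensity trend and robust eBayes, 11 with a pseudocount of 1, 39 with array weights, 49 of 17380 brighter probe sets, and 73 when probe sets were averaged and 19937 genes tested. With 1 sample left out the counts ran from 0 to 6, 6 when untreated sample 1 was dropped, 2 when tamoxifen sample 1 was, and 0 for each of the other 4, where 1360 to 2218 probe sets had an unadjusted p under 0.05. With the replicate block limma called 0, with 2525 at an unadjusted p under 0.05. Deviations of same-numbered samples correlated at 0.256, 0.0547 and 0.302, so not every pair exceeded 0.1, and the labels give no shared culture or batch by number. Untreated samples 1 and 3 correlated best with the tamoxifen sample of their own number, and untreated sample 2 with tamoxifen sample 1 (0.103). These values do not settle whether equal numbers mark paired samples. Of the 119 wider genes, 1 (Phyh) was called with array weights, with brighter probe sets and with averaged probe sets, and 0 under the other settings. The log2 fold change of Cd36 was 2.12, with 2.44 at a pseudocount of 1 and 1.52 at 64, and 1.97 to 2.33 with 1 sample left out. It kept its sign in all 17 settings, which groups so far apart leave little room to change. Cd36 was called under the same 3 settings as Phyh, which is a description, since the contrast entered its choice. Among them, the brightness filter took the mean over all 6 samples. Cd36 reached its bound (106.2) only through the tamoxifen samples, with group means of 48.1 untreated and 258 with tamoxifen. Scarb2, Cpt2, Hadha and Pdk4 changed sign in 3, 2, 1 and 2 settings. Pdk4 was too dim for the brightness filter. The cause of these changes, including any effect of fewer features tested, was not tested.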
